A study of Mus musculus with 14 samples.

Results

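The Rab genes encode the small GTPases that steer membrane vesicles between the compartments of a cell. They were taken from the deposited counts as every gene whose symbol is Rab followed by a number and at most a letter and a digit, which left out the genes of their regulators and effectors. There were 59 such genes among the 24091 in the table, and 47 of them had enough reads to be tested. The counts came from T cells sorted from the spleen (200000 cells per sample) of 8 CP CML mice (Mir142+/+BCR-ABL) and 6 BC CML mice (Mir142-/-BCR-ABL), and 1 RNA-seq library was made per mouse. All the mice were on the C57Bl/6j background and carried the SCLtTA/BCR-ABL transgenes, in which withdrawal of tetracycline (tet-off) for 3 weeks switches on the BCR-ABL oncogene through a transactivator driven from regulatory sequence of the stem cell gene SCL. The study used mice of 6 to 10 weeks and of both sexes, while in these 14 libraries the 4 Y-linked genes examined had no reads and Xist was present throughout. The BC CML mice also lacked miR-142 in every cell, so that disease phase, loss of miR-142 in the T cells and loss of miR-142 in their surroundings cannot be told apart, and the mouse names of the groups carry different prefixes.

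A Rab protein is switched on when an exchange factor loads it with GTP and switched off when a GTPase activating protein makes it hydrolyse that GTP. In the active form it sits on one kind of membrane through a lipid tail and recruits effectors such as tethers and motor proteins, and each Rab marks its own step of traffic. In T cells these steps include export of newly made receptors and cytokines from the endoplasmic reticulum (ER), recycling of the T cell receptor to the synapse, and release of cytotoxic granules.

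Depth was between 15703702 and 19914531 reads in the CP CML libraries and between 16145537 and 19399720 reads in the BC CML libraries. Mir142, the deleted gene on chromosome 11, had 302 to 650 reads in each CP CML library and 0 reads in each BC CML library. The T cell markers measured as a group were abundant in all the libraries (summed level of 12 genes, 4518 to 5205 CPM in CP CML and 5518 to 5858 CPM in BC CML, where CPM are counts scaled to a common library total). Within that group Cd4 was 404 ± 25.2 CPM in the 8 CP CML mice and 243 ± 45.8 CPM in the 6 BC CML mice (mean ± SD, as in all values of this form below), while Cd8a was 689 ± 64.3 CPM and 1263 ± 160.0 CPM. Cd8b1, which encodes the partner chain of Cd8a, was 436 ± 33.5 CPM and 457 ± 49.1 CPM (adjusted p = 0.352). Of 8 naive T cell markers 7 were lower in BC CML (summed level 5729 to 7157 CPM in CP CML against 3517 to 4913 CPM) and Satb1 was higher (log2 fold change 0.14). Of 9 effector markers 7 were higher (524 to 644 CPM against 915 to 1409 CPM), Ifng was not called, and Prf1, the pore-forming protein of cytotoxic granules, was lower (-0.18, adjusted p = 0.0189). Of 16 neutrophil, monocyte and macrophage markers 15 were higher in BC CML and the other did not pass the test. None was at 0 in every library, though the lowest CP CML library had 0 reads of Elane. The summed level of the 16 was 171 to 836 CPM in CP CML against 1268 to 2606 CPM in BC CML. Of 7 B cell markers 6 were higher in BC CML, with summed levels of 57.5 to 172.7 CPM in CP CML and 100.8 to 493.5 CPM in BC CML, which overlap. Of 7 basophil and mast cell markers 2 were higher, with overlapping summed levels of 3.62 to 13.1 CPM and 6.21 to 28.5 CPM. The part of these mixtures in the values below was not tested except where a fit with the myeloid markers is given. In bulk libraries such as these, fewer cells of a type and less RNA per cell cannot be told apart.

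The sequences of miR-142 and its matches in the Rab transcripts are shown first because the BC CML mice lack this miRNA. MicroRNAs pair with messenger RNAs mainly through the seed, bases 2 to 8 from the 5′ end, which are in capitals below. The mature sequences are those of RefSeq (GRCm38.p6) on the plus strand, with the 3p arm at chr11:87756903-87756925 and the 5p arm at chr11:87756867-87756887.
miR-142a-3p: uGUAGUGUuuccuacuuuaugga
miR-142a-5p: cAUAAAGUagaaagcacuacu

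The longest annotated 3′UTR of each gene (GENCODE vM21 on mm10) was searched on the transcript strand for the 8 bases ACACTACA or the 7 bases ACACTAC opposite the 3p seed, and for ACTTTATA or ACTTTAT opposite the 5p seed. The 7-base string is contained in the 8-base string, and a match of 8 was counted once. Matches to bases 2 to 7 of the 3p seed followed by an A (CACTACA), a weaker kind, were counted separately and are given with the comparison. Among tested Rab genes, 8-base matches to miR-142a-3p were found in Rab2a (2 matches), Rab12, Rab14, Rab39, Rab3a, Rab40c and Rab11b, all of which are printed below with their flanks, 5′ to 3′, and with the matching bases in capitals. The Rab2a stretches as printed, flanks included, lie on the plus strand at chr4:8606776-8606805 and chr4:8607314-8607343. Those of Rab12 (chr17:66495361-66495390), Rab14 (chr2:35181053-35181082), Rab39 (chr9:53685703-53685732), Rab40c (chr17:25882178-25882207) and Rab11b (chr17:33744510-33744539) lie on the minus strand, and that of Rab3a (chr8:70758559-70758588) on the plus strand.
Rab2a, first: aattgtattaaACACTACAaagtcatggtg
Rab2a, second: cagaaactccaACACTACAcaactcccaag
Rab12: ccttgttaattACACTACAaggcagacgct
Rab14: gtgcgtttttaACACTACAgtgagataatt
Rab39: tacaggcccatACACTACAtaatggtgaag
Rab3a: agaagttatgaACACTACAcacagtcaata
Rab40c: gcacaccatcaACACTACActtgctgctgt
Rab11b: gactggagaaaACACTACAaagaccaacac

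Rab1a had neither of these 2 matches to the 3p seed (it held 1 CACTACA). It held a 7-base match to the 5p seed on the plus strand, within the stretch printed below (chr11:20226258-20226286, flanks included). The match is shown because Rab1a was among the Rab genes with the lowest p-values.
Rab1a: tccaggtgtcaACTTTATtctttccaatt

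Compared with CP CML, BC CML T cells had more transcript of Rab1a and Rab2a, which work between the ER and the Golgi apparatus. They also had more of Rab12, Rab14 and Rab11a, which were listed here with the recycling Rabs. They had less Rab4a and Rab4b, which return receptors from early endosomes to the surface, and less Rab27a, which docks cytotoxic granules. The largest change was a rise of Rab27b, from a low level. In edgeR's quasi-likelihood F test, with p-values adjusted by Benjamini-Hochberg over all 12248 genes tested and a threshold of 0.05, 31 of the 47 tested Rab genes were called (66%), against 65.2% of all tested genes. Of the 47, 20 rose (42.6%), against 32.6% of all genes, 11 fell (23.4%), against 32.7%, and 16 did not pass the test. A log2 fold change of 1 or more in size was called for 9 (19.1%), against 12.9% of all genes. Of these 9, 7 were upward, as were 1233 of the 1584 such calls over all genes. For 16 Rab genes (34%), against 36.9% of all genes, the mice of the groups did not overlap. The BC CML mice were above in 14 of these 16, and in 2364 of the 4516 such genes in all. The median log2 fold change of the 47 was 0.11, and that of all tested genes was -0.008. The called share of the Rab genes was close to that background, and no test was made of the difference. Without BC CML replicate 6, the library with the most myeloid marker RNA, 29 Rab genes were called, and 63.7% of all genes. With the myeloid marker score as a covariate 20 were called, 12 of them upward, against 44.5% of all genes called in that fit.

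**Figure D1:**
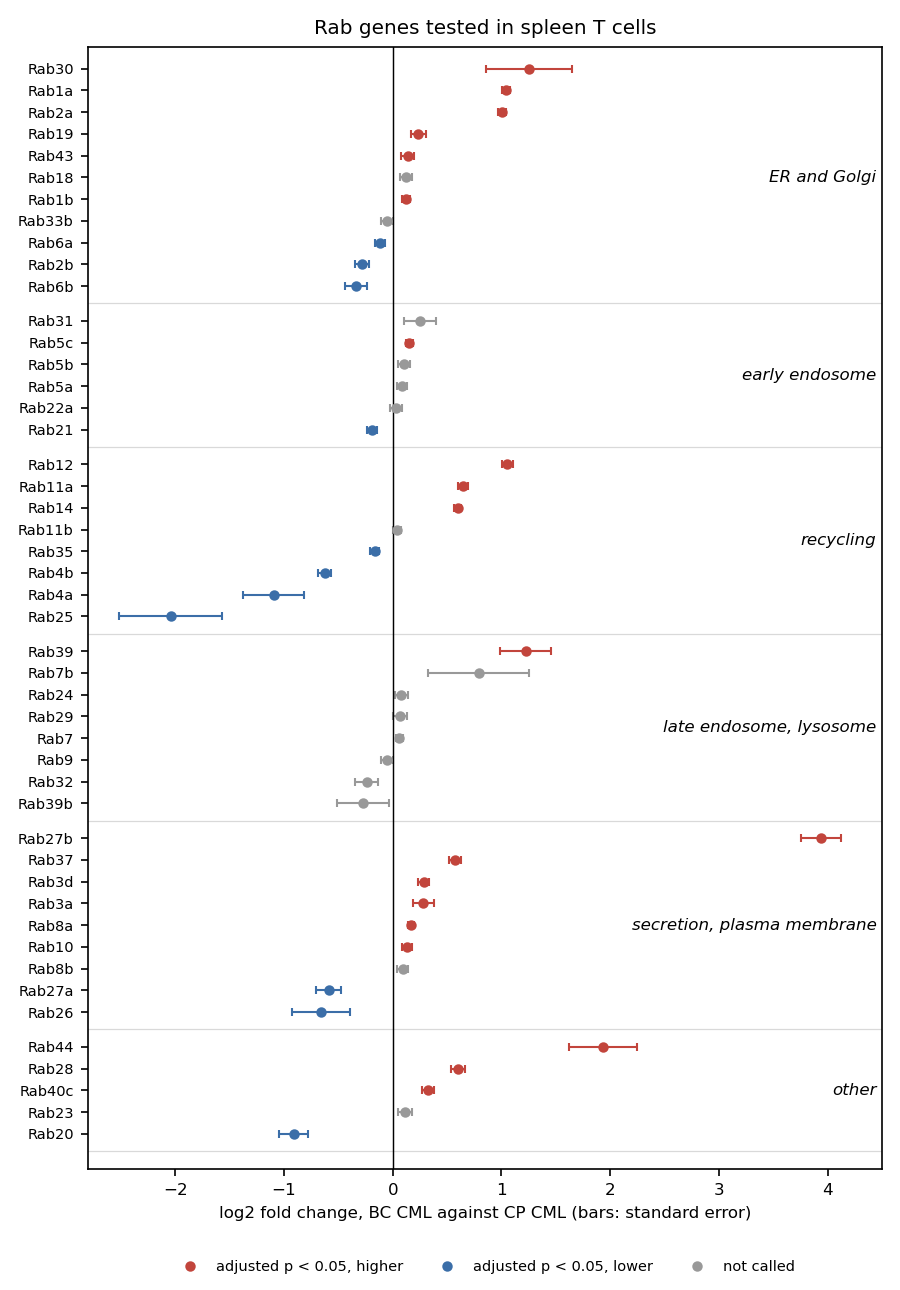
Log2 fold change (x axis, BC CML against CP CML, bars for the standard error) of the 47 tested Rab genes, ordered within their roles on the y axis, with calls above and below 0 in colour. Rab27b stands at 3.94 and Rab25 at -2.04, most others lie between -1 and 1, and 7 of the 8 late endosome genes are not called.

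Of the 11 tested Rabs of the ER and Golgi, 6 rose and 3 fell (81.8% called, against 65.2% of all genes). Rab1a, which controls the tethering of vesicles that leave the ER for the Golgi (chromosome 11, 20201602 to 20226856, plus strand), ranged from 78.0 CPM through a median of 83.1 to 88.6 CPM in the CP CML mice and from 156.6 through 175.4 to 180.4 CPM in the BC CML mice. Every BC CML mouse lay far above every CP CML mouse. The log2 fold change was 1.04 (SE 0.038, adjusted p = 2.25e-13), which is 2.06 times the CP CML mean.

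Rab2a, which acts in the intermediate compartment between ER and Golgi (chromosome 4, 8535644 to 8607702, plus strand), spanned 78.7, 85.8 and 88.0 CPM (lowest, median, highest) in CP CML and 163.7, 169.2 and 180.7 CPM in BC CML. Its groups did not overlap either, and the log2 fold change was 1.01 (SE 0.034, adjusted p = 6.91e-14). Both genes kept their size with the myeloid marker score as a covariate (Rab1a 1.08, Rab2a 0.99).

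Their paralogs did not move to the same extent. Rab1b, on chromosome 19, was 83.3 ± 3.32 CPM in CP CML and 90.4 ± 4.07 CPM in BC CML (log2 fold change 0.12, adjusted p = 0.00999), a call lost with the myeloid covariate (0.105, adjusted p = 0.179). Rab2b, on chromosome 14, went the other way, from 18.6, 20.2 and 23.5 CPM (lowest, median, highest) in CP CML to 15.6, 16.4 and 18.7 CPM in BC CML. The highest BC CML mouse lay just above the lowest CP CML mouse, and Rab2b fell by 0.28 on the log2 scale (SE 0.062, adjusted p = 6.04e-04). A stretch of 250 bases of Rab2b overlaps Tox4 on the opposite strand. Tox4 had 31087 reads in all against 4710 for Rab2b, and a log2 fold change of -0.10. The strand setting of the counting is not given in the sources used here.

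Per kb of gene length, the level of Rab1a was 0.571 ± 0.0381 of that of Rab1b in CP CML and 1.08 ± 0.0594 in BC CML. The BC CML mice ran from 1.01 to 1.16. Which form is the larger depends on the gene lengths used. Without them the CP CML means were 83.7 CPM for Rab1a and 83.3 CPM for Rab1b. The ratio of Rab2a to Rab2b per kb was 5.79 ± 0.551 in CP CML and 14.1 ± 0.684 in BC CML. Neither ratio overlapped between groups. Rab1a and Rab2a together made up 6.44 ± 0.125% of the summed Rab level per kb in CP CML and 11.6 ± 0.325% in BC CML.

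**Figure D2:**
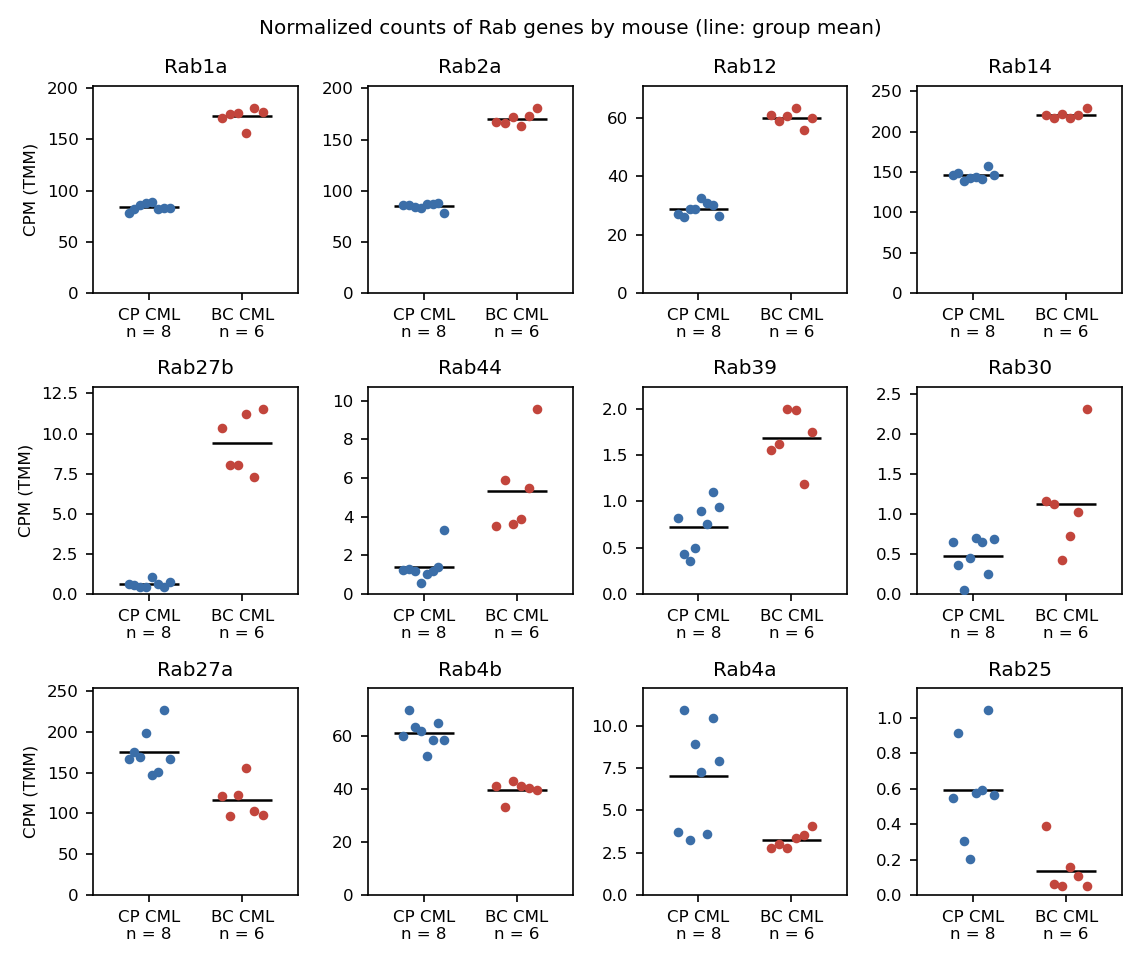
Normalized level (y axis, CPM after TMM scaling, linear from 0) of 12 Rab genes, 1 point per mouse, with the 8 CP CML mice in blue, the 6 BC CML mice in red and a line at each group mean. Rab1a, Rab2a, Rab12, Rab14, Rab27b, Rab44 and Rab39 have all BC CML mice above all CP CML mice, Rab4b has them below, and the 8 CP CML mice of Rab4a fall apart into 3 low and 5 high values.

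Rab30, a Golgi Rab, was scarce, with 0.0511, 0.55 and 0.7 CPM (lowest, median, highest) in CP CML and 0.42, 1.08 and 2.31 CPM in BC CML. The groups overlapped, and the highest value was that of BC CML replicate 6, which also had the highest myeloid, B cell and basophil marker levels. The log2 fold change was 1.25 (SE 0.396, adjusted p = 0.0103), 0.90 (adjusted p = 0.0454) without that mouse, and 0.11 (adjusted p = 0.914) with the myeloid covariate. Small rises were called for Rab19 (0.24) and Rab43 (0.14, adjusted p = 0.0456). Rab6b and Rab6a, which carry retrograde traffic at the Golgi, fell by 0.34 and 0.12 on the log2 scale. Rab18, found on the ER and on lipid droplets, was not called at 0.12 (adjusted p = 0.0731), nor was Rab33b at -0.05. The calls of Rab43 and Rab6a were lost when single mice were left out (in 10 and 6 of 14 fits).

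Of the 6 early endosome Rabs, 1 rose and 1 fell (33.3% called, against 65.2%). Rab5c, of the Rab5 group that organises fusion of early endosomes, was the second highest Rab per kb, at 72.6 CPM per kb over all the mice. It measured 129.3, 135.1 and 145.2 CPM in CP CML and 147.7, 150.5 and 156.4 CPM in BC CML, which is a small shift (log2 fold change 0.15, SE 0.034, adjusted p = 6.88e-04) without overlap between the groups. With the myeloid covariate it was 0.10 (adjusted p = 0.128). Rab5a (0.09) and Rab5b (0.10) were not called, and the ratios of Rab5a to each of them overlapped between groups. Rab21, which follows integrins into early endosomes, fell by 0.19 on the log2 scale (SE 0.043, adjusted p = 8.7e-04). Rab22a and Rab31 had log2 fold changes of 0.03 and 0.25 and did not pass the test.

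Recycling Rabs moved in both directions, 3 up and 4 down of 8 tested (87.5% called, against 65.2%). Rab12 (chromosome 17, 66494512 to 66519670, minus strand) was listed with these although it sends the transferrin receptor towards lysosomes. It had 26.1, 28.8 and 32.5 CPM (lowest, median, highest) in CP CML and 56.0, 60.2 and 63.3 CPM in BC CML. The groups stood well apart, with a log2 fold change of 1.055 (SE 0.051, adjusted p = 9.63e-12). Rab14, between the Golgi and endosomes (chromosome 2, 35180205 to 35201120, minus strand), ranged from 139.0 through 145.0 to 158.0 CPM in CP CML and from 217.3 through 220.5 to 229.3 CPM in BC CML. It also stood apart, with a log2 fold change of 0.60 (SE 0.033, adjusted p = 3.91e-11).

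Rab11a, the central Rab of the recycling endosome, was 39.0 ± 2.13 CPM in CP CML and 61.0 ± 4.06 CPM in BC CML (log2 fold change 0.65, SE 0.049, adjusted p = 2.69e-09). Its paralog Rab11b was 144.5 ± 6.13 CPM and 148.6 ± 5.46 CPM and was not called (0.04, adjusted p = 0.332), although it carries the 8-base match printed above. The level of Rab11a per kb was 0.703 ± 0.0315 of that of Rab11b in CP CML and 1.07 ± 0.102 in BC CML, with no overlap.

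Both Rab4 genes fell. Rab4b (chromosome 7, 27168433 to 27178883, minus strand) was 61.2 ± 5.08 CPM in CP CML and 39.7 ± 3.33 CPM in BC CML, with all BC CML mice below all CP CML mice (log2 fold change -0.63, SE 0.062, adjusted p = 1.06e-07). Rab4a (chromosome 8, 123805996 to 123835291, plus strand) had 3.27, 7.59 and 10.9 CPM (lowest, median, highest) in CP CML and 2.77, 3.20 and 4.06 CPM in BC CML (log2 fold change -1.095, SE 0.282, adjusted p = 0.00283). The groups overlapped, and the CP CML mice differed among themselves. Replicates 1, 3 and 6 had 3.71, 3.27 and 3.62 CPM, within the range of the BC CML mice, and the other 5 had between 7.26 and 10.9 CPM.

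Rab25, a relative of Rab11 known mainly from epithelia, had 4 to 17 reads in each CP CML library and 1 to 7 reads in each BC CML library. That was 0.201, 0.57 and 1.04 CPM (lowest, median, highest) against 0.0514, 0.0853 and 0.388 CPM, with overlap (log2 fold change -2.04, SE 0.473, adjusted p = 0.00105). The value for Rab25 was -2.655 without BC CML replicate 1, the highest of that group, and -2.884 with the myeloid covariate. Rab35, which recycles cargo at the plasma membrane, fell by 0.17 on the log2 scale (adjusted p = 0.00205).

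Of the 8 tested Rabs of late endosomes and lysosomes, 1 was called (12.5%, against 65.2% of all genes), and it rose. Their median size of log2 fold change was 0.159, against 0.128 for the early endosome Rabs and 0.279 for all genes. Rab7, which drives maturation of late endosomes and their fusion with lysosomes, was the third highest Rab per kb (71.9 CPM per kb). It measured 177.9, 184.1 and 191.8 CPM in CP CML and 185.8, 191.2 and 200.3 CPM in BC CML, which overlap (log2 fold change 0.06, SE 0.030, adjusted p = 0.0927). DESeq2 gave an adjusted p of 0.0285 for Rab7. Rab9, Rab24, Rab29, Rab32, Rab39b and Rab7b were not called, with log2 fold changes from -0.27 for Rab39b to 0.79 for Rab7b. The highest Rab7b level, 1.8 CPM, was again in BC CML replicate 6.

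The called gene was Rab39, a Rab of phagosomes and autophagy (chromosome 9, 53684110 to 53706232, minus strand). It was scarce, at 0.357, 0.787 and 1.1 CPM (lowest, median, highest) in CP CML and 1.19, 1.68 and 1.99 CPM in BC CML, and the groups did not overlap (log2 fold change 1.22, SE 0.233, adjusted p = 1.78e-04). With the myeloid covariate the value was 0.85 (adjusted p = 0.0776).

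Of 9 Rabs of secretion and the plasma membrane, 6 rose and 2 fell (88.9% called, against 65.2%). Rab27b, which like Rab27a brings secretory granules to the cell membrane, had 7 to 17 reads in each CP CML library and 129 to 224 reads in each BC CML library. This was 0.429, 0.572 and 1.08 CPM (lowest, median, highest) against 7.31, 9.21 and 11.5 CPM, a rise in all 6 mice (log2 fold change 3.94, SE 0.183, adjusted p = 5.28e-12). The change was 3.68 (adjusted p = 1.28e-07) with the myeloid covariate and 3.87 to 4.09 when single mice were left out.

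Rab27a is needed for the release of cytotoxic granules, and its loss in humans causes an immune deficiency with albinism. It was the more abundant form, and it fell, from 147.4, 167.8 and 226.4 CPM (lowest, median, highest) in CP CML to 97.2, 112.3 and 155.7 CPM in BC CML, with 1 BC CML mouse inside the CP CML range. The log2 fold change was -0.59 (SE 0.117, adjusted p = 4.22e-04), and -0.40 (adjusted p = 0.074) with the myeloid covariate. Per kb, Rab27b had 0.00168 ± 0.000784 of the level of Rab27a in CP CML and 0.0376 ± 0.00857 in BC CML, so Rab27a was the major form in both groups.

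**Figure D3:**
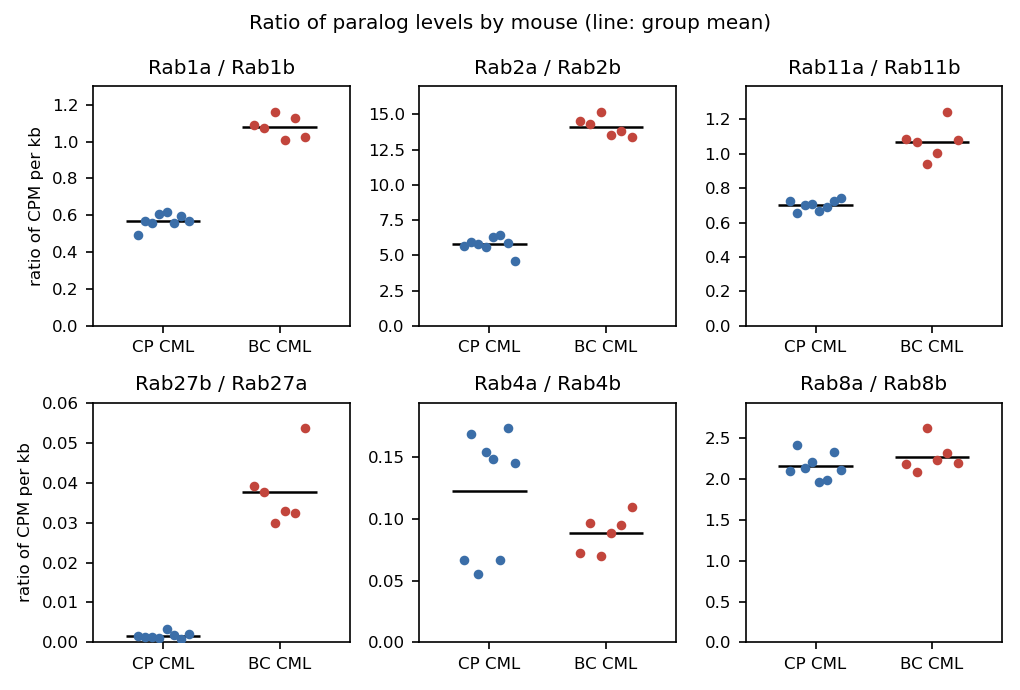
Ratio of the levels per kb of 6 pairs of Rab paralogs (y axis, linear from 0), 1 point per mouse, with CP CML in blue, BC CML in red and a line at each mean. Rab1a/Rab1b, Rab2a/Rab2b, Rab11a/Rab11b and Rab27b/Rab27a are higher in every BC CML mouse than in any CP CML mouse, while Rab4a/Rab4b and Rab8a/Rab8b overlap.

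Rab8a, which takes vesicles from the Golgi to the plasma membrane, had the highest level of all Rabs per kb (97.8 CPM per kb). It rose slightly without overlap, from 178.5, 186.2 and 194.4 CPM in CP CML to 201.9, 208.1 and 219.3 CPM in BC CML (log2 fold change 0.17, SE 0.030, adjusted p = 1.08e-04). Rab10, with related work at the plasma membrane and a level close behind Rab7 (63.8 CPM per kb), had 199.1, 212.2 and 238.9 CPM in CP CML and 228.7, 236.1 and 241.1 CPM in BC CML, which overlap (0.13, SE 0.042, adjusted p = 0.0115). Rab10 shares 2947 bases with the antisense gene Rab10os, and it was not called with the myeloid covariate (0.12, adjusted p = 0.177). Rab8b was not called (0.09).

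Rab37, of secretory granules, was 100.5 ± 8.42 CPM in CP CML and 149.4 ± 9.31 CPM in BC CML without overlap (log2 fold change 0.57, SE 0.054, adjusted p = 5.84e-08). It lies opposite Cd300lf, which shares 17779 bases with it and had 1021 reads in all against 30684 for Rab37. Rab3d (0.28, adjusted p = 1.44e-04) and Rab3a (0.28, adjusted p = 0.02), Rabs of regulated exocytosis, rose as well. The call of Rab3a was lost without BC CML replicate 3 (0.24, adjusted p = 0.0539) and with the myeloid covariate (0.40, adjusted p = 0.0535). Rab26, with 4 to 15 reads per library, fell by 0.66 on the log2 scale (adjusted p = 0.0379), a call that was lost in 8 of 14 fits with a mouse left out.

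Of the 5 Rabs with other roles, 3 rose and 1 fell (80.0% called, against 65.2%). Rab44, a large Rab known from bone marrow cells and mast cells (chromosome 17, 29135056 to 29148976, plus strand), had 0.551, 1.22 and 3.33 CPM (lowest, median, highest) in CP CML and 3.49, 4.67 and 9.56 CPM in BC CML. The groups did not overlap, though the highest CP CML mouse came close to the lowest BC CML mouse (log2 fold change 1.94, SE 0.314, adjusted p = 4.42e-05). In each group the highest Rab44 level belonged to the mouse with the highest myeloid marker level, replicate 8 of CP CML and replicate 6 of BC CML. The change was 0.58 (adjusted p = 0.156) with the myeloid covariate, 2.24 without CP CML replicate 8 and 1.68 without BC CML replicate 6.

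Rab28 was 15.4 ± 1.52 CPM in CP CML and 23.4 ± 1.05 CPM in BC CML without overlap (log2 fold change 0.60, SE 0.065, adjusted p = 2.94e-07). Rab40c, a Rab that serves in a ubiquitin ligase, rose by 0.32 (adjusted p = 9.21e-05). Rab20, known from phagosomes and hypoxia (chromosome 8, 11453977 to 11478499, minus strand), was 7.11 ± 1.24 CPM in CP CML and 3.78 ± 0.557 CPM in BC CML, with every BC CML mouse below (log2 fold change -0.91, SE 0.133, adjusted p = 1.09e-05). Rab23 was not called (0.11).

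The 12 Rab genes that were not tested had between 0 and 119 reads in all 14 libraries together. Rab3c and Rab9b had 0 reads, Rab40b had 1 and Rab17 had 2, and the others were Rab13, Rab15, Rab33a, Rab34, Rab36, Rab38, Rab3b and Rab42. Rab36 was the highest of them, with 1 to 9 reads per CP CML library and 7 to 25 reads per BC CML library.

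Added per kb, the 59 Rab genes had a summed level of 1045 ± 13.8 CPM per kb in CP CML and 1182 ± 17.1 CPM per kb in BC CML, with no overlap. The ER and Golgi Rabs made up 21.7 ± 0.355% of that sum in CP CML and 25.5 ± 0.562% in BC CML. That increase lay in Rab1a and Rab2a, since the share of the other ER and Golgi Rabs was 15.2 ± 0.386% in CP CML and 13.9 ± 0.377% in BC CML. This share was lower in every BC CML mouse, but it is a share of a larger total and does not show that their level fell. The share of early endosome Rabs went from 17.7 ± 0.326% to 16.1 ± 0.44% and that of late endosome and lysosome Rabs from 11.9 ± 0.163% to 10.9 ± 0.198%, each without overlap, while those of the other roles overlapped. In level, the early endosome Rabs summed to 185.0 ± 4.28 and 190.3 ± 7.85 CPM per kb and the late endosome and lysosome Rabs to 123.8 ± 2.77 and 128.2 ± 2.54 CPM per kb, so their smaller shares came with a larger total and not with lower levels.

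The members were then set beside the matches to miR-142. Of the 47 tested Rab genes, 10 (21.3%) had a 7- or 8-base match to the 3p seed, as did 870 of the 11515 tested genes with an annotated 3′UTR (7.56%). Of these 10 Rab genes 6 rose and none fell, and their median log2 fold change was 0.30. Of the 37 without one 14 rose and 11 fell, with a median of 0.09. Over all tested genes 51.0% of those with a match rose (median 0.18), against 32.1% of those without (median -0.016). Of the 870 with a match 169 fell, and of the 10645 without one 3607 fell.

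The 6 that rose were Rab39, Rab12, Rab2a, Rab14, Rab40c and Rab3a, and each was among the 7 Rab genes with an 8-base match. Over all tested genes 378 (3.28%) had an 8-base match, of which 56.1% rose and 60 genes fell. The 3 Rab genes with matches of 7 bases only, Rab18, Rab23 and Rab29, were not called. Genes with a 3p match had longer 3′UTRs (median 2680.5 bases over all tested genes, against 1285 without). For the Rab genes these medians were 2132.5 bases with a 3p match and 1951 without. For the 5p seed, 10 of the 47 Rab genes (21.3%) and 16.2% of all tested genes had a match. Of these 10, 5 rose and 2 fell, with a median of 0.11, which was also the median of the 37 without. Over all tested genes 39.8% of those with a 5p match rose, against 32.3% of those without. Of the 1871 with a 5p match 539 fell, and of the 9644 without one 3237 fell. Among the 10 Rab genes with a 5p match, Rab27b, Rab1a, Rab37, Rab10 and Rab39 rose and Rab6b and Rab21 fell. When CACTACA was counted too, a choice made after the data were seen, Rab1a, Rab11a and Rab31 joined the Rab genes with a 3p match, which were then 13 (27.7%), against 13.3% of all tested genes. Of these 13, 8 rose and none fell. Over all genes 47.6% of those with any such match rose, against 31.3% of those without. Of the 1537 with any such match 346 fell, and of the 9978 without one 3430 fell. The other 12 Rab genes that rose, with Rab27b, Rab44, Rab30, Rab28 and Rab37 at the top, held none of the 3 kinds of 3p match. A match is a string of letters in an annotated 3′UTR, and whether miR-142 acts through any of them was not tested.

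**Figure D4:**
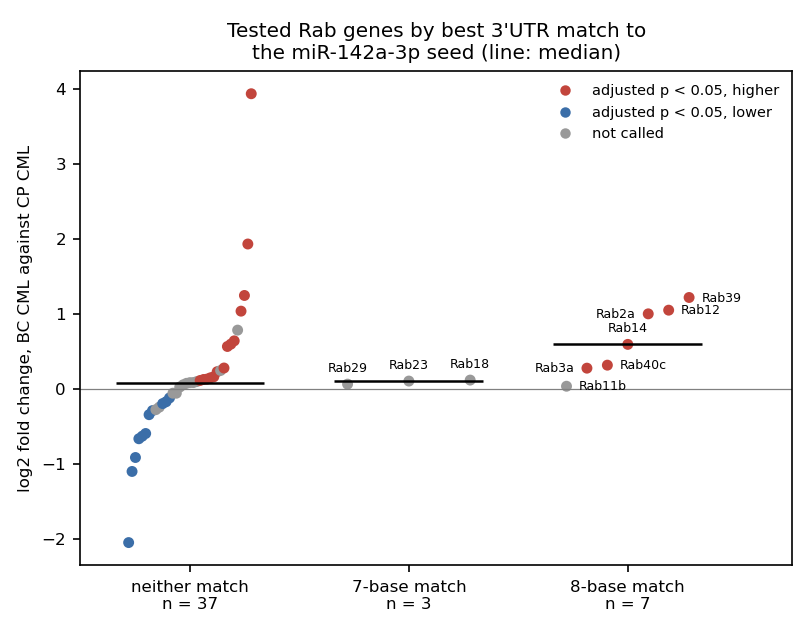
Log2 fold change (y axis, BC CML against CP CML) of the 47 tested Rab genes, grouped on the x axis by their best 3′UTR match to the miR-142a-3p seed, 1 point per gene with a line at the median. The 7 genes with an 8-base match lie between 0.04 (Rab11b) and 1.22 (Rab39), while genes with neither of these matches spread from -2.04 to 3.94. Rab1a, Rab11a and Rab31, with the weaker match alone, are among the latter.

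The genes that act on Rabs were examined from a list of 125 regulators and effectors, of which 113 were tested. Of these 71 were called (62.8%, against 65.2% of all genes). Upward calls were 45 (39.8%, against 32.6% of all genes) and downward calls 26 (23%, against 32.7%). The median log2 fold change of the 113 was 0.09, against -0.008 for all tested genes. Of 8 genes for prenylation, escort and extraction of Rabs, 1 rose and 3 fell (50.0% called, against 65.2%). Chml, an escort protein that presents Rabs for lipid attachment, went from 13.6 ± 1.37 to 23.6 ± 3.69 CPM (log2 fold change 0.80, adjusted p = 5.13e-07). Both subunits of the enzyme that attaches the lipid fell, Rabggta by 0.67 and Rabggtb by 0.24 on the log2 scale, as did Rabac1, a Rab acceptor, by 0.75. The 4 not called included the other escort gene Chm (-0.02) and the GDP dissociation inhibitor Gdi2 (-0.07).

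Of 29 exchange factor genes, 12 rose (41.4%, against 32.6% of all genes) and 6 fell (20.7%, against 32.7%). Dennd4a, of the DENN family that includes exchange factors for Rab10, went from 124.5 ± 13.9 CPM in CP CML to 285.7 ± 29.3 CPM in BC CML (log2 fold change 1.198, SE 0.073, adjusted p = 3.15e-10). Dennd3, an exchange factor for Rab12, rose by 0.57. Madd, an exchange factor for Rab3 and Rab27 proteins, went from 337.4 ± 19.6 to 203.9 ± 21.7 CPM (-0.73, adjusted p = 7.96e-09). Hps1, of the complex that activates Rab32 and Rab38, fell by 0.78 and Dennd6b by 0.33.

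Of 36 genes for Rab GTPase activating proteins (GAPs), 12 rose (33.3%, against 32.6% of all genes) and 10 fell (27.8%, against 32.7%). Most of them carry the TBC domain, while Rab3gap1 (-0.375, called) and Rab3gap2 (0.095, not called) form a complex of another kind. Evi5 went from 4.58 ± 0.533 CPM in CP CML to 34.9 ± 1.40 CPM in BC CML, the largest change of the 113 genes tested (log2 fold change 2.93, SE 0.071, adjusted p = 9.86e-16). Tbc1d12 rose by 0.91 and Tbc1d2b by 0.85. Tbc1d30 fell by 0.85, Tbc1d15, which acts on Rab7, by 0.57, and Tbc1d4, the GAP of insulin-controlled Rab10, by 0.53 on the log2 scale, the last with overlapping groups.

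Of 40 effector genes, 20 rose (50.0%, against 32.6% of all genes) and 7 fell (17.5%, against 32.7%). Myo5a, the motor that carries granules bearing Rab27a and other Rabs along actin, went from 57.9 ± 2.44 to 104.4 ± 4.37 CPM (log2 fold change 0.85, SE 0.037, adjusted p = 2.29e-12). Eea1, the tether recruited by Rab5, rose by 0.69 and Rph3al by 0.60. Rab11fip4, an effector of Rab11, went from 52.5 ± 4.57 to 27.5 ± 3.17 CPM (-0.93, adjusted p = 4.46e-09), Mical3 fell by 0.67 and Rabep2 by 0.36. Unc13d, the effector through which Rab27a primes cytotoxic granules for fusion, was 149.1 ± 11.01 CPM and 148.6 ± 8.13 CPM (log2 fold change -0.005, adjusted p = 0.938). It was named after its value was seen, as were Chm and Gdi2.

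**Figure D5:**
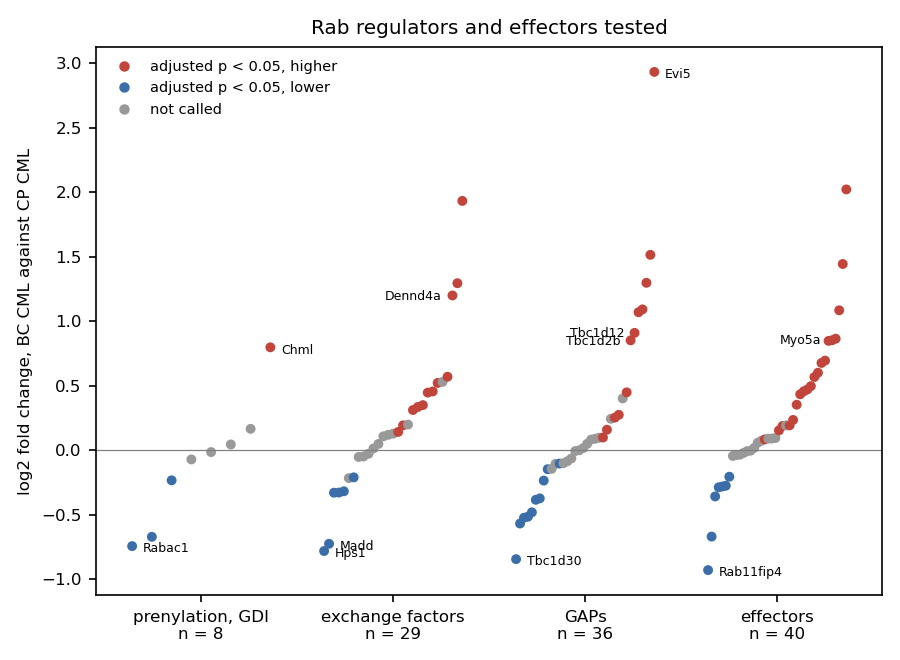
Log2 fold change (y axis, BC CML against CP CML) of the 113 tested genes that act on Rabs, in 4 classes on the x axis and ordered by size within each, with calls above and below 0 in colour. Evi5 stands apart at 2.93, and no gene of the 4 classes fell by more than 1.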

How the data were processed

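The bulk libraries of spleen T cells were analysed (paired reads of 101 bases). Per the labels and the study's methods, the authors trimmed reads with Trimmomatic and FASTP, aligned them to mm10 with STAR 2.6.0, and counted them with HTSeq 0.11.1. The deposited values are raw counts per gene with position and length, without normalization. The annotation and strand setting are not given in the sources used here.

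All 14 samples entered a single fit in R 4.3.3 (edgeR 4.0.16, limma 3.58.1). After filterByExpr by group and TMM scaling, BC CML was tested against CP CML with robust quasi-likelihood F tests and Benjamini-Hochberg adjustment at 0.05. Standard errors came from the fold change and the F statistic. CPM values are TMM-scaled, and levels per kb use the deposited gene length. Chi-square comparison of counts found no pair of libraries within sampling noise. The labels name separate samples, so p-values measure the spread between these samples.

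The fit was repeated with a likelihood ratio test, with DESeq2 (version 1.42.0), with RLE factors or plain library sizes, without the low-count filter or with a minimum of 1 CPM in 6 samples, with a replicate block, with the mean log2 level of the myeloid markers as a covariate, and without each mouse in turn. The members and lists were chosen with earlier results of these data known. The lowest, median and highest mouse of each group were given for members called with a log2 change of at least 1, for the 6 highest per kb, and for paralogs called in opposite directions. From each class of regulators, up to 3 risen and 3 fallen genes with the largest change and an average log2 CPM of at least 3 were named, apart from a gene that is not reported here. Roles and marker lists were written from general knowledge. Of the marker lists, the erythroid and megakaryocyte genes summed to 20.8 to 68.1 CPM in CP CML and 44.4 to 73.4 CPM in BC CML. 3′UTRs came from GENCODE vM21.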

Additional observations from a re-analysis of the deposited data

Results flagged for a closer look

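In 94 groups of values (47 tested Rab genes in each of the 2 groups of mice), 8 had a single mouse far from the others by Dixon's criterion, where chance gives about 1 group in 20, or 4.7. The value is the gap to the nearest mouse as a share of the range of the group. In CP CML, replicate 1 was lowest for Rab3d (0.587, at 15.8 CPM with the next at 18 CPM), and replicate 8 was highest for Rab44 (0.692, at 3.33 CPM with the next at 1.41 CPM). In BC CML, replicate 1 was highest for Rab25 (0.687, at 0.388 CPM with the next at 0.157 CPM) and lowest for Rab32 (0.811, at 4.71 CPM with the next at 7.29 CPM). Replicate 2 was lowest for Rab4b (0.67, at 33.2 CPM with the next at 39.7 CPM) and replicate 5 was lowest for Rab11b (0.704, at 137.9 CPM with the next at 148.4 CPM). Replicate 6 was highest for Rab14 (0.651, at 229.3 CPM with the next at 221.5 CPM) and for Rab7b (0.705, at 1.8 CPM with the next at 0.68 CPM).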

How the results depend on the processing

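Over the 8 alternatives other than leaving out a mouse, 20 to 36 Rab genes were called (31 as reported). The 36 are of 57 tested without a filter on low counts, where 49.5% of all genes were called, in place of 47 and 65.2%. Among those 57, 14 Rab genes changed by at least 1 on the log2 scale in place of 9. With the myeloid marker score as a covariate 20 of the 47 were called, 12 upward, and 44.5% of all tested genes were called in that fit. The myeloid marker levels of the groups do not overlap, so that fit can separate group and markers only in part. With a mouse left out, 27 to 31 Rab genes were called (62.8% to 65.2% of all genes), 19 to 21 upward, 8 to 11 downward and 7 to 9 by at least 1. In the same fits 67 to 72 regulators and effectors were called (71 as reported), 42 to 46 upward and 25 to 27 downward. Over the 8 other alternatives 51 to 73 of them were called, 33 to 47 upward and 18 to 26 downward. In those 8 fits 44.5% to 66.1% of all genes were called. The sign turned for 6 Rab genes, 5 with the myeloid covariate (Rab33b 0.049, Rab43 -0.056, Rab5a -0.039, Rab5b -0.011, Rab7b -0.332) and Rab22a with the replicate block (-0.003). Of these only Rab43 was called as reported, and the cause was not tested. Rab1a, Rab2a, Rab2b, Rab3d, Rab4a, Rab4b, Rab6b, Rab8a, Rab11a, Rab12, Rab14, Rab20, Rab21, Rab27b, Rab28, Rab35, Rab37 and Rab40c kept their direction and their call in all 22 alternatives.

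The groups share replicate numbers 1 to 6 in the sample titles, but the mice differ. The correlation of deviations between same-numbered mice ran from -0.273 to 0.356 (mean -0.024), so the numbers do not pair them. With the replicate block on 12 mice, 27 of 46 tested Rab genes and 59.8% of all genes were called, and the calls of Rab1b (adjusted p = 0.0736), Rab3a (0.0608), Rab19 (0.0778) and Rab26 (0.0692) were lost. Rab25 had too few reads to be tested there, and Rab5a passed the test (0.113, adjusted p = 0.0449).

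Depth limits the genes near 1 CPM (Rab25, Rab26, Rab30, Rab39, Rab7b), which rest on at most 45 reads in any library.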
